A study of Homo sapiens with 30 samples.

Results

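LNCaP is a prostate cancer line that responds to androgen and was grown out of a lymph node metastasis. In it, the 77 genes that encode the proteins of the cytosolic ribosome were followed across 5 groups, given vehicle or the synthetic androgen R1881. They were chosen by name alone: rows of the LNCaP count table whose Ensembl gene ID maps to a symbol of the form RPL or RPS plus a number, with an optional A or X, or to RPLP0, RPLP1, RPLP2 or RPSA. That gives 77 of 37843 rows, 31 for the small and 46 for the large subunit, and leaves out 1111 rows of their pseudogenes. The groups were vehicle and R1881 at 0.03, 0.06, 0.1 and 10 nM for 24 hours, each with 3 libraries numbered 2, 3 and 4. Every group was LNCaP plated in medium with 8% charcoal-stripped serum and left for 48 hours before treatment, so vehicle cells were androgen-depleted as well as untreated. LNCaP is 1 cell line, and the labels do not say whether replicates were separate cultures, so p-values measure the spread between these libraries, which may be technical. The question the design poses is what separates a low from a high dose of androgen.

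Each ribosome holds a small subunit, which reads the messenger RNA, and a large subunit, which joins amino acids, and the proteins of both are made in matched amounts. Most of their messengers begin with a cytosine followed by a run of pyrimidines, the 5′ terminal oligopyrimidine (TOP) tract, through which the kinase complex mTORC1 and the RNA-binding protein LARP1 set their translation and stability. Output of these messengers is therefore often controlled at translation, which a messenger RNA count does not measure.

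The tract lies at the transcript start, which is shown here for members on which the results turn and for a contrast. RefSeq (GRCh38.p14) lists a start for 62 of the 77 genes. Each window has 15 bases before the listed start and 15 from it on, 5′ to 3′ on the gene's strand, with the pyrimidine run from the first transcribed base in capitals. RPL13A and RPS3 are the members called at 10 nM, RPLP0 and RPLP1 belong to the stalk, RPS6 is the mTORC1-pathway substrate and RPS18 a common reference. RPL22L1 is a paralog that rose, EEF1A1 another TOP messenger and KLK3 an androgen target with no such run.
RPL13A, chr19:49487593-49487622, plus strand: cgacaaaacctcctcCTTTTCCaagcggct
RPS3, chr11:75399503-75399532, plus strand: gcccgcgagccacttCCTTTCCTTTCagcg
RPLP0, chr12:120201097-120201126, minus strand: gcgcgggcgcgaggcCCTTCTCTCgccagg
RPLP1, chr15:69452803-69452832, plus strand: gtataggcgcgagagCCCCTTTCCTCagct
RPS6, chr9:19380222-19380251, minus strand: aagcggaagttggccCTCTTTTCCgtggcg
RPS18, chr6:33272060-33272089, plus strand: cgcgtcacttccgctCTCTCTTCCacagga
RPL22L1, chr3:170870181-170870210, minus strand: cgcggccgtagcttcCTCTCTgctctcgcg
EEF1A1, chr6:73521018-73521047, minus strand: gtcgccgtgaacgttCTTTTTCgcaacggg
KLK3, chr19:50854900-50854929, plus strand: tgggggaggctccccagccccaagcttacc

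A start with C and at least 4 further pyrimidines was found at 46 of the 62 members with a listed start (74.2%), against 5.14% of all 27305 genes with one. Among 69 mitochondrial ribosomal protein genes, whose products serve the separate ribosome of that organelle, the share was 8.70%. Windows from 250 bases before to 50 after the start were also searched for CACGTG, the E-box bound by MYC, which reads the same on both strands. It was in 4 of 62 members (6.45%), namely RPL13A, RPL19, RPS19 and RPS28, and in 8.77% of all genes. The full palindrome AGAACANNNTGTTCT of the androgen response element was in 0 of 62 members on either strand and in 0.00366% of all genes. These are matches of letters in a short window and show no binding.

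Total counts per library ran from 30666460 to 61199483. Levels are CPM, counts scaled to library size, over library totals times TMM factors, given as mean ± SD with 3 libraries a group, and log2 fold changes carry their SE. The androgen response was present in every treated group: KLK3, which encodes prostate-specific antigen, averaged 103, 774, 1503, 2086 and 3852 CPM from vehicle to 10 nM. The 5 libraries numbered 3, 1 in each group, gave 9.31% to 10.7% of counts to mitochondrially encoded genes, against 6.14% to 7.69% in the other 10. The 7 luminal prostate markers, KLK3 among them, summed to 4311 to 12333 CPM. Basal markers (2 of 3 in the table) and neuroendocrine and leukocyte markers (3 each) summed to at most 0.914, 3.90 and 0.0757 CPM. The fibroblast sum of 16.1 to 37.7 CPM was mostly COL1A1 and the endothelial sum of 5.16 to 26.4 CPM mostly VWF, while DCN, PECAM1 and CDH5, which define those types, were at or near 0. COL1A1 and VWF both fell at 10 nM, by 0.85 and 1.55 on the log2 scale. LUM, the other fibroblast marker tested, fell further (log2 -2.42). The part of these markers in the results was not tested.

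All 77 genes passed the low-count filter, and 70 averaged at least 100 CPM in vehicle. Per kilobase of coding sequence, their vehicle levels had a median of 1471 CPM and quartiles of 838 and 1976 CPM. RPL41, whose product is the shortest ribosomal protein, was highest at 13911 CPM per kilobase, followed by RPLP1 of the stalk at 3785, RPL37A at 3662 and RPS18 at 3384. Toward the other end lay RPS10 at 3.43, RPL36A at 10.3, RPL17 at 22.4 and RPL26 at 90.3 CPM per kilobase. These low values stand beside shared sequence: 39.4% of RPS10 exon bases and 32.7% of RPL17 exon bases are shared with a read-through gene on the same strand. Counts on pseudogene copies came to 906.5% of the RPS10 count, 132.7% of the RPL36A count and 55.2% of the RPL17 count. Their levels are uncertain for that reason, and no equimolar output of the 77 genes can be read from these counts.

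From vehicle to 0.1 nM, no ribosomal protein gene passed the test, and at 10 nM 2 of 77 did, both lower (edgeR quasi-likelihood, Benjamini-Hochberg adjusted p under 0.05 over 18403 genes). Among all genes tested the percentage called was 8.63% at 0.03 nM, 31.2% at 0.06 nM, 42.1% at 0.1 nM and 57.6% at 10 nM. Between 10 and 0.06 nM, 1 of 77 was called, lower, against 45.3% of all genes in either direction and 22.6% lower. Of the 2301 genes tested at 100 CPM or more, which have the depth of most members, 69.9% were called at 10 nM. They are not matched in spread: the typical SD within groups was 0.12 on the log2 scale for members of that level, against 0.069 for other genes. A larger spread makes a call harder to reach. At an unadjusted p under 0.05 the members numbered 1 at 0.03 nM and 1 at 0.06 nM, both higher, 0 at 0.1 nM, and 4 at 10 nM and 2 in 10 against 0.06 nM, all lower. DESeq2 called 0, 0, 0, 2 and 1 members in the same 5 comparisons. The 4 comparisons with vehicle share the vehicle libraries, and the comparison of 10 with 0.06 nM shares its libraries with them, so their results are not independent.

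**Figure D1:**
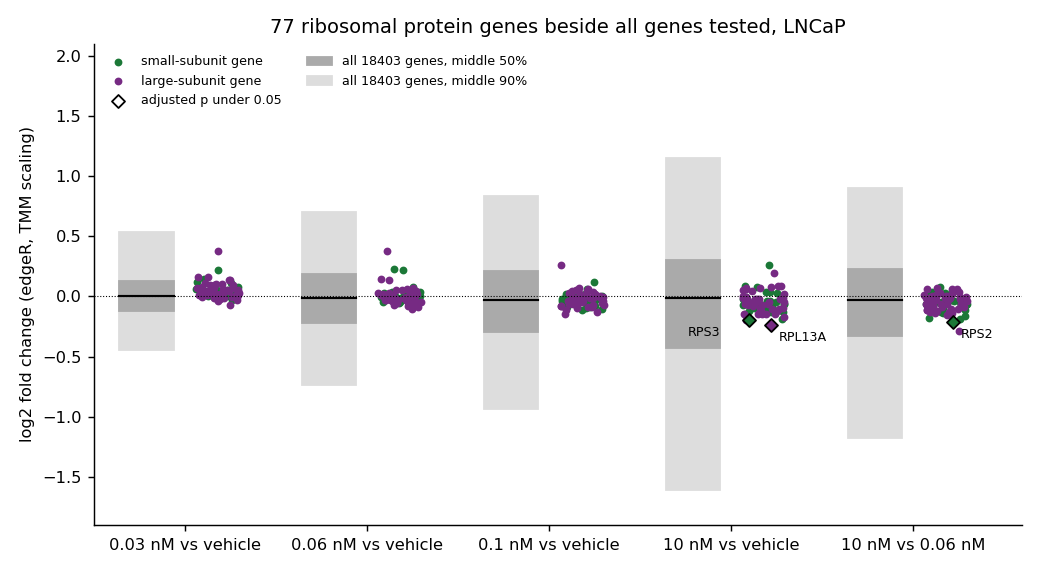
Log2 fold change (edgeR, TMM scaling) of each of the 77 ribosomal protein genes (dots; diamonds passed the test) in 5 comparisons, beside the middle 50% and 90% of all 18403 genes tested (grey bars; line, median). The members stay between -0.24 and 0.26 at 10 nM against vehicle, where RPL13A and RPS3 are the 2 that passed.

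The estimates were also narrow. At 10 nM against vehicle the 77 log2 fold changes ran from -0.24 (RPL13A) to 0.26 (RPS10). Of these 60 lay below 0, against 51.1% of all genes and 29.9% of those at 100 CPM or more. The 95% interval lay wholly within 0.5 of 0, that is within 1.41-fold, for 75 of 77 members at 10 nM, all but RPL26 and RPS10. Among all genes tested 37.0% had an interval that narrow and that close to 0. Of those 18403 genes 2301 reached 100 CPM, so this share is not matched to the members for depth. The counts at 0.03, 0.06 and 0.1 nM were 74, 74 and 76 of 77, and in 10 against 0.06 nM 76 of 77. For every member in every comparison the interval lay within a log2 of 1. A smaller limit was met less often: at 10 nM, 36 of 77 intervals lay within 0.25 of 0. The median SE at 10 nM was 0.084, and the median interval reached 0.18 either side of its estimate.

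The median log2 fold change of the members was 0.030 at 0.03 nM, -0.010 at 0.06 nM, -0.036 at 0.1 nM, -0.062 at 10 nM and -0.059 in 10 against 0.06 nM. Over all genes tested the medians were 0.0023, -0.014, -0.026, -0.013 and -0.027. The sign of the members' median depended on single libraries at the low doses: it was -0.050 at 0.03 nM without 0.03 nM replicate 3 and -0.023 without vehicle replicate 4. At 0.06 nM it was 0.053, 0.033 and 0.022 without vehicle replicate 3, 0.06 nM replicate 2 or 0.06 nM replicate 4, and at 0.1 nM 0.036 without vehicle replicate 3. At 10 nM it stayed below 0, from -0.14 without 10 nM replicate 3 to -0.0089 without vehicle replicate 3. In 10 against 0.06 nM it was 0.021 without 0.06 nM replicate 3. By mean level, 51 of 77 members were highest at 0.03 nM and 50 of 77 lowest at 10 nM, against 12.7% and 36.7% of all genes. The members shift together by library, so these counts are not 77 separate observations. In 0.03 nM replicate 3, 75 of 77 lay above their group's mean, and in 0.03 nM replicate 2 only 1 did.

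As a share of all counts the members were lower at 10 nM. They took between 5.64% and 6.43% of counts in the vehicle libraries and between 5.67% and 6.45% in those given 0.03 nM. At 0.06 nM the range was 5.63% to 6.20% and at 0.1 nM it narrowed to 5.61% to 5.71%. The 10 nM libraries held 4.76%, 5.26% and 4.92%. The 3 libraries at 10 nM lay below all 12 others, with a mean of 4.98% ± 0.255 at 10 nM against 6.04% ± 0.395 in vehicle. With 3 libraries against 3 an exact two-sided permutation test cannot give a p below 0.1. TMM factors, which adjust for shifts in the composition of a library, averaged 0.902 ± 0.0166 at 10 nM and 1.04 ± 0.0162 in vehicle. With library totals in place of TMM factors the median of all genes was -0.22 at 10 nM and 43.4% were called lower and 16.7% higher, in place of 28.3% and 29.3%. On that scale 61 of 77 members were called lower, with a median of -0.27, which is 0.049 below the median of all genes on that scale and 0.048 below it with TMM factors. Which scale reflects the messenger per cell was not measured, and in bulk RNA fewer cells with a transcript and less of it per cell cannot be told apart.

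**Figure D2:**
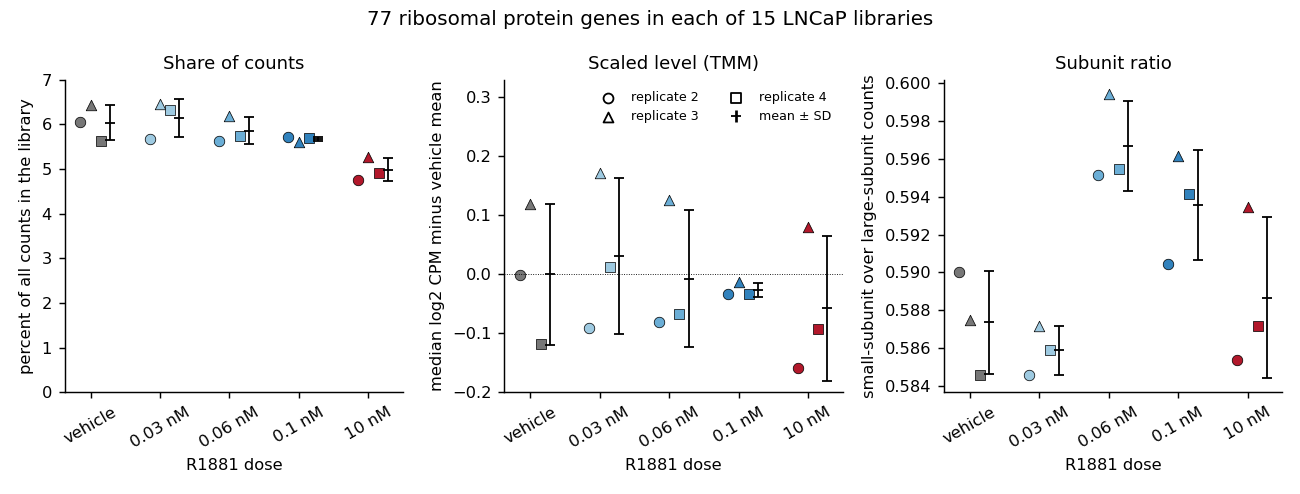
The 77 genes in each of the 15 libraries from vehicle to 10 nM: share of all counts (percent), median TMM-scaled log2 CPM relative to the vehicle mean, and ratio of small-subunit to large-subunit counts (symbols, replicate; bars, mean ± SD of 3). The share is 4.76% to 5.26% in the 10 nM libraries and at least 5.61% in all others, while the scaled medians overlap between 10 nM and vehicle.

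The small and large subunits kept nearly the same ratio at every dose. Counts on the 31 small-subunit genes were 0.585 to 0.599 of those on the 46 large-subunit genes in all 15 libraries. The group means were 0.587 ± 0.0027 in vehicle, 0.586 ± 0.0013 at 0.03 nM, 0.597 ± 0.0024 at 0.06 nM, 0.594 ± 0.0029 at 0.1 nM and 0.589 ± 0.0042 at 10 nM. The 0.06 nM libraries (0.595 to 0.599) did not overlap vehicle (0.585 to 0.590), a difference of under 0.015 in the ratio. Nor did the 0.1 nM libraries (0.5904 to 0.5962), whose lowest lay just above the highest vehicle library (0.5900). The 10 nM libraries overlapped vehicle. At 10 nM 1 of 31 small-subunit genes and 1 of 46 large-subunit genes were called, with median log2 fold changes of -0.070 and -0.046.

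Within a group the 77 genes shifted together from library to library. In 10 nM replicate 3, 75 of 77 lay above their group's mean, while in replicates 2 and 4 only 1 and 10 did. The same held in vehicle, where 75 of 77 lay above the mean in replicate 3, 37 in replicate 2 and 2 in replicate 4. The 0.1 nM group was the most even, with 29, 48 and 34 in replicates 2, 3 and 4. The typical SD within groups was 0.12 on the log2 scale for the 70 members at 100 CPM or more on average, against 0.069 for 2231 other genes of that level. The libraries numbered 3, which had the higher mitochondrial share, had a member median 0.097 above the vehicle mean on average, and the other 10 libraries -0.066. The part of RNA quality or library preparation in this was not tested. Over all 15 libraries RPL6 varied least of the members, with a coefficient of variation of 3.65%, followed by RPL24 (4.17%) and RPS4X (4.69%), and RPL26 most at 18.4%.

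RPL13A, a large-subunit protein that also serves as a translational silencer after interferon, had the lowest log2 fold change of the 77 members at 10 nM. The gene (ENSG00000142541.18, chromosome 19, 49487554 to 49492308, plus strand, GRCh38) hosts several small nucleolar RNAs, and 17.3% of its exon bases are shared with other genes on that strand. RPL13A measured 1552, 1762 and 1575 CPM in the 10 nM libraries numbered 2, 3 and 4, against 1871, 2122 and 1768 CPM in vehicle. The highest 10 nM library lay just below the lowest vehicle library. Its mean was 1630 ± 115 CPM at 10 nM and 1921 ± 182 CPM in vehicle, 0.849-fold (log2 -0.24 ± 0.087, edgeR adjusted p = 0.0267). At the low doses its means were 1906, 1789 and 1760 CPM.

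RPS3, which lies at the messenger entry channel of the small subunit and also acts in DNA repair, fell alongside it. The gene (ENSG00000149273.15, chromosome 11, 75399486 to 75422280, plus strand) had 780, 882 and 797 CPM at 10 nM, against 939, 995 and 884 CPM in vehicle. The groups did not overlap, by a margin of under 2 CPM. RPS3 averaged 820 ± 54.6 CPM at 10 nM and 939 ± 55.6 CPM in vehicle, a log2 fold change of -0.20 ± 0.072 (edgeR adjusted p = 0.027). Each call was lost when certain single libraries were left out. RPL13A was no longer called without vehicle replicate 3 (log2 -0.17), 10 nM replicate 2 (-0.21) or 10 nM replicate 4 (-0.22). RPS3 was not called without any of these 3 (-0.16, -0.17 and -0.19) or without vehicle replicate 2 (-0.20). The number of members called lower was 0 without vehicle replicate 3, 10 nM replicate 2 or 10 nM replicate 4, 1 without vehicle replicate 2, 7 without vehicle replicate 4 and 9 without 10 nM replicate 3. It was 10 without all libraries numbered 3, where RPL13A (log2 -0.22) and RPS3 (-0.21) were both still called.

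Groups that did not overlap were also few. At 10 nM every library lay below every vehicle library for 5 of 77 members, RPL7A, RPL10A, RPL13A, RPS2 and RPS3, and above it for 0. Of all genes tested, 31.2% were lower and 31.5% higher in that way. At the low doses such members included RPS10 at 0.03 nM, higher, and RPL7A, RPL10 and RPL10A at 0.1 nM, lower, against 13.1% and 25.3% of all genes in the same direction. RPL10A had 594, 680 and 625 CPM at 10 nM, against 690, 731 and 682 CPM in vehicle, with a log2 fold change of -0.15 ± 0.066 that missed the threshold (edgeR adjusted p = 0.0652). RPL7A, like RPL13A a host of small nucleolar RNAs, averaged 1728 ± 80.03 CPM at 10 nM and 1897 ± 115 CPM in vehicle (log2 -0.13 ± 0.068).

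**Figure D3:**
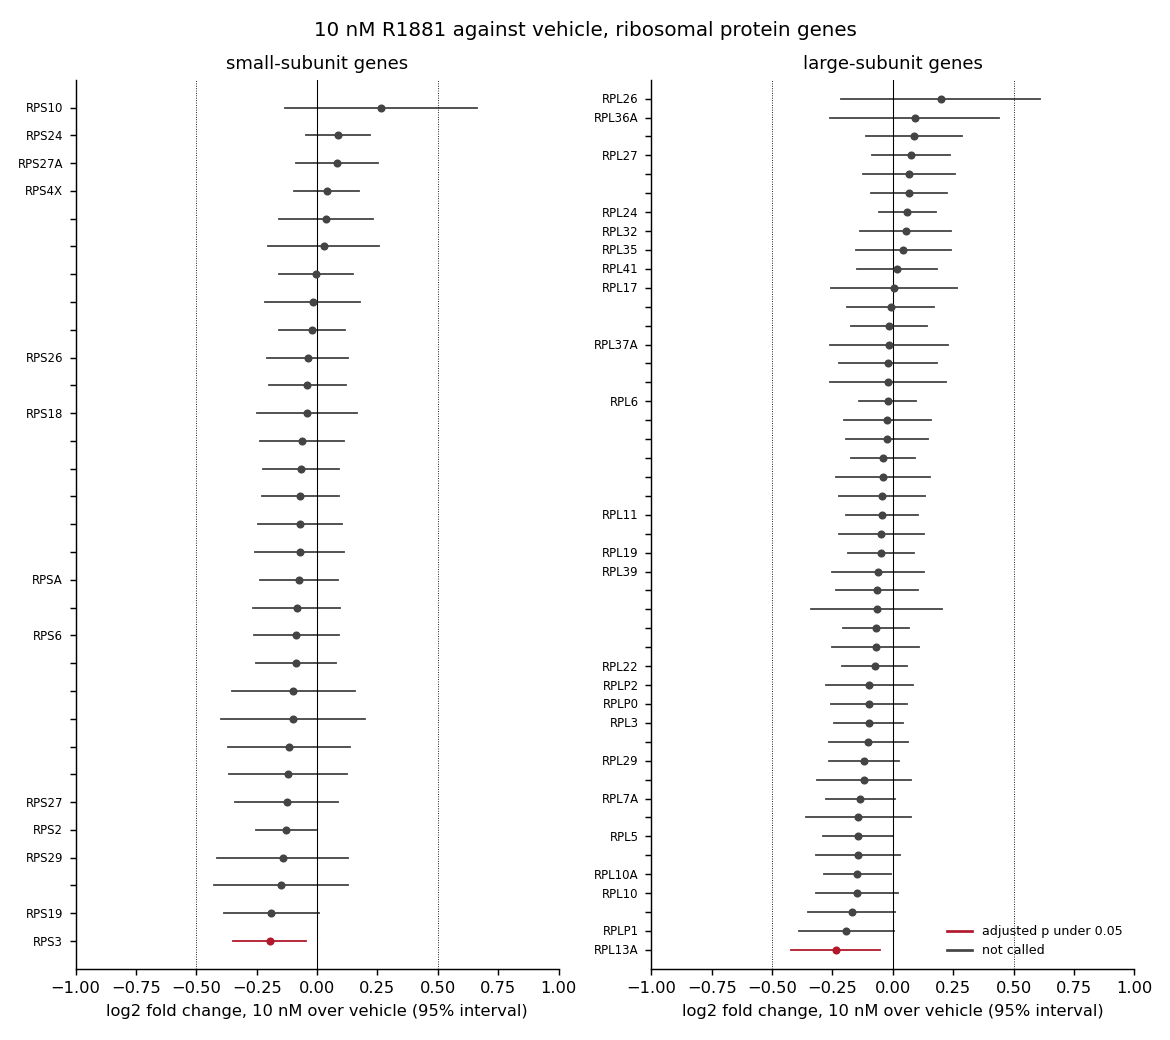
Log2 fold change at 10 nM over vehicle with its 95% interval for each small-subunit gene (left) and large-subunit gene (right), ordered by size, with genes whose values the text gives named; dotted lines mark 0.5 either side of 0. RPS3 and RPL13A (red) are the called members, and the intervals of RPS10 and RPL26 pass the dotted line.

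Between the high dose and 0.06 nM the called member was RPS2, a small-subunit protein and known substrate of the methyltransferase PRMT3. RPS2 (ENSG00000140988.16, chromosome 16, 1962052 to 1964860, minus strand) had 2315, 2258 and 2321 CPM at 10 nM, against 2554, 2818 and 2611 CPM at 0.06 nM. The 10 nM libraries were the tightest of any group and lay below all at 0.06 nM. The means were 2298 ± 35.04 CPM at 10 nM and 2661 ± 139 CPM at 0.06 nM, log2 -0.21 ± 0.059 (edgeR adjusted p = 0.00693). This call was kept with each library left out in turn, with log2 fold changes of -0.24 to -0.17. Exon bases shared with other genes on its strand, among them SNORA10 and SNORA64, make up 25.6% of the gene. The count of members called lower in this comparison was 1, but 2 without 0.06 nM replicate 2 (RPS3 as well) and 5 without 10 nM replicate 3. Groups failed to overlap, lower, for RPL29, RPL36A and RPS2, against 27.2% of all genes.

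At the low doses the counts of 0 held with few exceptions. At 0.03 nM the smallest adjusted p was 0.18, for RPL36A, with 3.33, 4.75 and 4.70 CPM at 0.03 nM, against 2.86, 3.99 and 2.95 CPM in vehicle (log2 0.38 ± 0.16, edgeR). Those groups overlapped. With the replicate number as a block, which the deviations of these libraries allow, RPL36A was called higher (log2 0.39) and the genes called in all were 3195 in place of 1588. Without 0.03 nM replicate 2, RPL35 was called higher. At 0.06 nM RPL36A had 4.35, 4.41 and 3.98 CPM, which overlapped vehicle at its replicate 3 (log2 0.37 ± 0.17, edgeR adjusted p = 0.0979), and it was called without vehicle replicate 3. At 0.1 nM the block gave 2 members called lower, RPL10 (log2 -0.15) and RPL13A (-0.12). RPL36A is near-identical to RPL36AL, so its counts are uncertain. No member was called in opposite directions at 0.06 nM against vehicle and at 10 against 0.06 nM, a pattern found for 6.3% of all genes tested.

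The P stalk of the large subunit, which recruits the translation factors, had 3 members below their vehicle level on average, and 0 of them was called. RPLP0, its base, had 1670, 1876 and 1718 CPM at 10 nM, against 1829, 1992 and 1815 CPM in vehicle. One 10 nM library lay within the vehicle range, and the log2 fold change was -0.099 ± 0.074, with a 95% interval of -0.26 to 0.058. RPLP1 averaged 1133 ± 99.0 CPM at 10 nM and 1294 ± 153 CPM in vehicle, log2 -0.19 ± 0.093 (edgeR adjusted p = 0.0861). RPLP2 averaged 634 ± 41.8 CPM at 10 nM and 678 ± 18.2 CPM in vehicle. At 0.03, 0.06 and 0.1 nM 0 of the 3 passed the test as well.

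RPL5 and RPL11, which carry the smallest ribosomal RNA into the large subunit and, when free, bind the ubiquitin ligase MDM2, were not called either. RPL5 had 572, 649 and 561 CPM at 10 nM, against 655, 687 and 625 CPM in vehicle (log2 -0.14 ± 0.068, edgeR adjusted p = 0.0827). RPL11 had 447, 518 and 483 CPM at 10 nM, against 475, 541 and 478 CPM in vehicle, with the groups overlapping and a 95% interval of -0.19 to 0.10. MDM2 fell by 0.19 at 10 nM, and the cell-cycle inhibitors CDKN2A and CDKN1A fell by 0.26 and 0.21 on the log2 scale. The CDKN2A call was lost without vehicle replicate 3 or 10 nM replicate 3 (-0.21 and -0.18) and without all libraries numbered 3 (-0.11). That of CDKN1A was lost without vehicle replicate 2, 10 nM replicate 3 or 10 nM replicate 4 (-0.14, -0.21 and -0.19), without all libraries numbered 3 (-0.22), and with RLE factors or DESeq2. MDM4, the partner of MDM2, was called higher at log2 0.19, but it is -0.015 with library totals. CDKN1A was called lower by more at the doses of 0.06 nM (log2 -0.41) and 0.1 nM (-0.53), and both calls held under every alternative. It was not called at 0.03 nM or in 10 against 0.06 nM. There, 4 alternatives called it lower in the former and 5 called it higher in the latter.

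RPS6, the substrate of S6 kinase, had 1476, 1696 and 1500 CPM at 10 nM, against 1562, 1791 and 1605 CPM in vehicle. The groups overlapped, and the log2 fold change was -0.085 ± 0.084. RPS19, the gene most often mutated in Diamond-Blackfan anaemia, averaged 317 ± 32.96 CPM at 10 nM and 362 ± 33.6 CPM in vehicle (log2 -0.19 ± 0.094, edgeR adjusted p = 0.0959). Of 20 members linked to that anaemia 0 were called in any of the 5 comparisons, and their median at 10 nM was -0.032. RPS26, RPS29 and RPS27, which belong to the same list, had log2 fold changes at 10 nM of -0.039, -0.14 and -0.13.

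Several members serve as reference genes in quantitative PCR. Of 10 such genes 1, RPL13A, was called at 10 nM and 0 at the other doses. RPS18 measured 1343, 1677 and 1476 CPM at 10 nM, against 1489, 1695 and 1446 CPM in vehicle, an overlap of the groups. RPL19 had 904, 974 and 932 CPM at 10 nM, against 952, 1042 and 913 CPM in vehicle. RPL32 averaged 761 ± 77.1 CPM at 10 nM and 733 ± 83.2 CPM in vehicle. The log2 fold changes of RPS18, RPL19 and RPL32 were -0.042 ± 0.098, -0.049 ± 0.065 and 0.053 ± 0.089. Over the 5 groups, the highest mean of a member was at most 1.30 times its lowest, with a median of 1.09 times. Of 2231 other genes at 100 CPM or more, 26.5% passed 1.5 times, and 0 of 77 members did.

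RPL3, which lies at the peptidyl transferase centre, averaged 2231 ± 86.3 CPM at 10 nM and 2392 ± 129 CPM in vehicle (log2 -0.10 ± 0.067). RPL10, an X-linked protein that joins the large subunit late, averaged 564 ± 50.2 CPM at 10 nM and 625 ± 46.2 CPM in vehicle (log2 -0.15 ± 0.081). The other X-linked members RPS4X, RPL39 and RPL36A had 0.040 ± 0.063, -0.061 ± 0.091 and 0.090 ± 0.17, so 0 of 4 were called. RPL41 averaged 1057 ± 41.7 CPM at 10 nM and 1043 ± 139 CPM in vehicle. RPSA, also known as the laminin receptor precursor, had a log2 fold change of -0.075 ± 0.076. The ubiquitin fusion RPS27A had 0.082 ± 0.081, and FAU, a fusion outside the rule, had 0.12 ± 0.11. RACK1, a small-subunit scaffold named outside the rule, averaged 1243 ± 58.9 CPM at 10 nM and 1350 ± 66.6 CPM in vehicle (log2 -0.12 ± 0.064).

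Paralogs of the ribosomal protein genes, which encode variant proteins, formed a short list of their own. Of 8 listed paralogs 6 passed the low-count filter, the exceptions being RPL3L and RPL39L, and at 10 nM 5 of these were called higher and 1 lower, with a median log2 fold change of 0.27 against -0.013 over all genes. Of all genes tested, 29.3% were called higher and 28.3% lower. With library totals 2 were called higher, RPL22L1 and RPL36AL, and 1 lower. RPL22L1 had 368, 406 and 385 CPM at 10 nM, against 300, 269 and 244 CPM in vehicle. All treated libraries at 0.06, 0.1 and 10 nM lay above all vehicle libraries. Its log2 fold changes were 0.19 ± 0.075 at 0.03 nM (edgeR adjusted p = 0.136; called with the replicate block and without vehicle replicate 2), 0.33 ± 0.075 at 0.06 nM, 0.41 ± 0.075 at 0.1 nM and 0.51 ± 0.075 at 10 nM (edgeR adjusted p = 1.38e-05).

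RPL22 itself, whose protein in mouse represses the paralog, averaged 98.8 ± 8.00 CPM at 10 nM and 104 ± 4.83 CPM in vehicle (log2 -0.075 ± 0.064). Within a library, which no scaling affects, the ratio of RPL22L1 to RPL22 counts was 3.96, 3.76 and 4.02 at 10 nM, against 2.93, 2.45 and 2.43 in vehicle. The means by dose were 2.60 ± 0.285 in vehicle, 3.13 ± 0.167 at 0.03 nM, 3.37 ± 0.0741 at 0.06 nM, 3.49 ± 0.335 at 0.1 nM and 3.91 ± 0.138 at 10 nM. All treated libraries lay above the vehicle range. For other paralogs such ratios overlapped between 10 nM and vehicle. RPS27L to RPS27 was 0.135 to 0.158 at 10 nM and 0.139 to 0.172 in vehicle. RPL26L1 to RPL26 was 0.498 to 0.831 and 0.498 to 0.807, and RPL36AL to RPL36A 53.9 to 70.4 and 38.6 to 55.4. The ratio of RPL7L1 to RPL7 did not overlap, with 0.419 to 0.469 at 10 nM and 0.349 to 0.398 in vehicle.

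RPL36AL, the copy of RPL36A, was raised at the high dose. It had 213, 213 and 220 CPM at 10 nM, against 161, 156 and 148 CPM at 0.06 nM and 158, 154 and 132 CPM in vehicle. The 10 nM libraries lay above all others, with log2 fold changes of 0.54 ± 0.066 over vehicle (edgeR adjusted p = 1.62e-06) and 0.48 ± 0.066 over 0.06 nM (edgeR adjusted p = 1.19e-05). At 0.1 nM it was 0.14 ± 0.067 and was called with the replicate block. RPL7L1, which acts in ribosome assembly, averaged 313 ± 8.39 CPM at 10 nM and 271 ± 1.51 CPM in vehicle (log2 0.21 ± 0.041, and 0.0016 with library totals). RPL26L1 and RPL10L, a retrocopy of RPL10 whose reads are hard to separate from it, rose by 0.26 ± 0.081 and 0.29 ± 0.097. Both lost their call with some libraries left out and with library totals. RPS27L was the paralog that fell, to 86.3 ± 1.90 CPM at 10 nM against 97.1 ± 6.71 CPM in vehicle (log2 -0.17 ± 0.057, edgeR adjusted p = 0.0177), a call lost without vehicle replicate 2 (-0.12) or 10 nM replicate 2 (-0.16). At 0.03 nM RPS27L was called lower with the replicate block (-0.15). It was called lower at 0.06 and 0.1 nM (log2 -0.17 and -0.19, edgeR adjusted p = 0.032 and 0.0147). Those calls were lost without the libraries numbered 3 (-0.13 and -0.12). RPL7L1 was called higher at 0.06 and 0.1 nM (0.15 and 0.19, edgeR adjusted p = 0.00905 and 0.00103), but not at 0.06 nM with library totals (0.12). RPL26L1 was called higher at 0.1 nM (0.21).

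**Figure D4:**
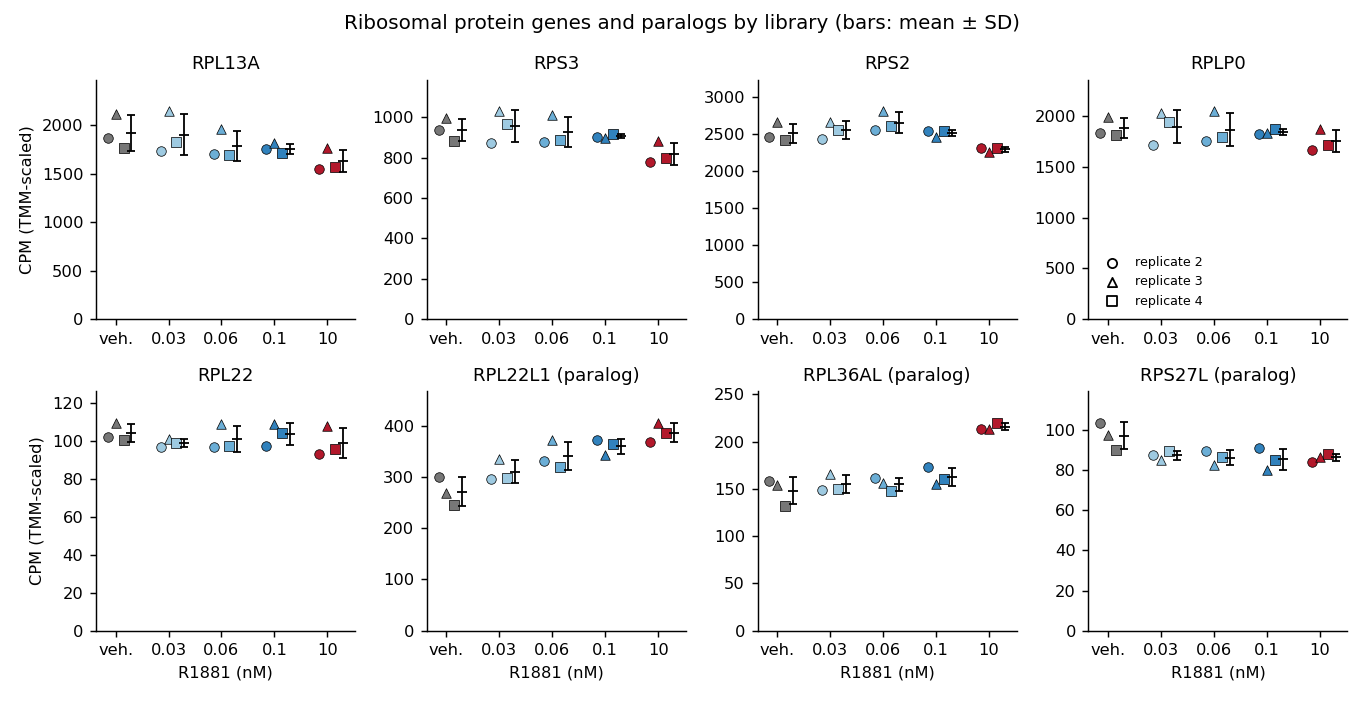
TMM-scaled CPM in each library from vehicle to 10 nM (symbols, replicate; bars, mean ± SD of 3; every axis starts at 0) for 5 ribosomal protein genes and 3 paralogs. RPL22L1 stands at 368 to 406 CPM at 10 nM against 244 to 300 CPM in vehicle, while RPL22 overlaps between 10 nM and vehicle.

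Other TOP messengers, mostly of the translation machinery, include the elongation factors. Of 20 tested genes on that list, 8 were lower and 2 higher at 10 nM, with a median log2 fold change of -0.095, and with library totals 17 were lower and 0 higher. The 10 called of 20 are close to the 57.6% of all genes called, and 28.3% of all genes were lower. The largest fall was in NAP1L1, a histone chaperone whose messenger also has such a tract, with 350 ± 5.58 CPM at 10 nM against 511 ± 32.3 CPM in vehicle (log2 -0.55 ± 0.053). EEF2, the translocation factor, had -0.40 ± 0.080 and EEF1A1, which delivers aminoacyl-tRNA, -0.18 ± 0.074. The initiation factor genes EIF3F, EIF3H, EIF3L and EIF4A2 fell by 0.27, 0.14, 0.16 and 0.20, and HNRNPA1 by 0.19. Leaving out a single library ended the calls of EEF1A1 (without vehicle replicate 3 or 10 nM replicate 2 or 4), EIF3H (without vehicle replicate 3 or 4 or 10 nM replicate 2 or 4) and HNRNPA1 (without vehicle replicate 2), with log2 fold changes of -0.19 to -0.13 in these cases. NPM1 and TPT1 were called higher at 0.13 and 0.21, but with library totals they were -0.082 and -0.0035. The NPM1 call was also lost without any 1 of vehicle replicates 3 and 4 and the 10 nM replicates (log2 0.10 to 0.13) and under either other filter. A difference between this list and the ribosomal protein genes was not tested. Among the 46 members with the tract at the listed start 2 were called, both lower, and among the 16 with another start 0, with medians of -0.068 and -0.022.

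Of 11 tested snoRNA host genes, which also carry such tracts, 3 were called at 10 nM, all lower: EPB41L4A-AS1 (log2 -0.47 ± 0.10), SNHG32 (-0.49 ± 0.13) and GAS5 (-0.34 ± 0.11). Their median was -0.098, and their share is near the 28.3% of all genes called lower. The GAS5 call was lost without vehicle replicate 3 or 10 nM replicate 2 (both -0.26). With library totals 7 of the 11 were called lower. The host genes SNHG1, SNHG12 and SNHG16 were the 3 called higher at 0.06 nM, and all 3 were among the 5 called lower in 10 against 0.06 nM. Of all genes 16.9% were called higher at 0.06 nM and 22.6% lower in 10 against 0.06 nM. Called in opposite directions in the 2 comparisons were 6.3% of all genes. Both comparisons use the 0.06 nM libraries, so they are not independent.

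The mitochondrial ribosome, built from other nuclear genes, is a comparison for the cytosolic one. Of 77 tested mitochondrial ribosomal protein genes 38 were higher and 2 lower at 10 nM, with a median log2 fold change of 0.15, but with library totals 13 were higher and 17 lower with a median of -0.056. Of all genes tested with TMM factors, 29.3% were called higher and 28.3% lower, 57.6% in all. MRPS18A had the largest rise, log2 1.44 ± 0.056, followed among those of smallest p by MRPL17 (0.62 ± 0.062) and MRPL42 (0.57 ± 0.059), while MRPS27 fell by 0.55 ± 0.044. At 0.06 nM 29 of 77 were higher and 0 lower, against 16.9% higher and 14.3% lower among all genes. A difference between the sets was not tested.

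The chaperones that escort new ribosomal proteins were called in part: of 11 tested, 5 were higher and 2 lower at 10 nM, with BCCIP at log2 0.80 ± 0.047, NVL at 0.54 ± 0.054, GRWD1 at 0.52 ± 0.054 and AAMP at 0.47 ± 0.048. With library totals the split was 4 higher and 3 lower. The 7 called of 11 are near the 57.6% of all genes. Those that fell were PRMT3 (-0.28 ± 0.070), the methyltransferase of RPS2, and PDCD2 (-0.19 ± 0.058), its dedicated chaperone. Among 12 genes for RNA polymerase I and the smallest ribosomal RNA, 5 were higher and 3 lower, with TAF1A at 0.92 ± 0.10, GTF3A at 0.37 ± 0.068, TAF1B at 0.32 ± 0.082 and POLR1D at -0.53 ± 0.047. With library totals that split was 2 higher and 7 lower. The 5 higher became 3 without vehicle replicate 2 or 4 or 10 nM replicate 3 or 4, and also with only the libraries compared or the stricter filter. The 8 called of 12 are near the 57.6% of all genes called.

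Of 20 genes for mTORC1 and the LARP proteins, 9 were higher and 8 lower at 10 nM, and 6 and 10 with library totals. Of all genes tested 29.3% were higher and 28.3% lower. MTOR, the kinase, averaged 281 ± 5.54 CPM at 10 nM and 104 ± 3.60 CPM in vehicle (log2 1.44 ± 0.048). Its inhibitor DEPTOR and the stress-induced inhibitors SESN3 and SESN1 fell by 1.72, 1.76 and 1.14. MYC, a known activator of ribosomal protein genes, had 152 ± 1.27 CPM in vehicle, 180 ± 12.9 at 0.03 nM, 206 ± 7.89 at 0.06 nM, 198 ± 13.0 at 0.1 nM and 110 ± 2.55 at 10 nM. Relative to 0.06 nM, MYC at 10 nM had a log2 fold change of -0.91 ± 0.058 (edgeR adjusted p = 6.47e-10). In that comparison 1 of 77 ribosomal protein genes was called lower with TMM factors and 57 with library totals. Of all genes 22.6% were called lower with TMM factors and 38.3% with library totals. With library totals the median was -0.24 for the members and -0.21 for all genes. A link between MYC and the members was not tested.

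**Figure D5:**
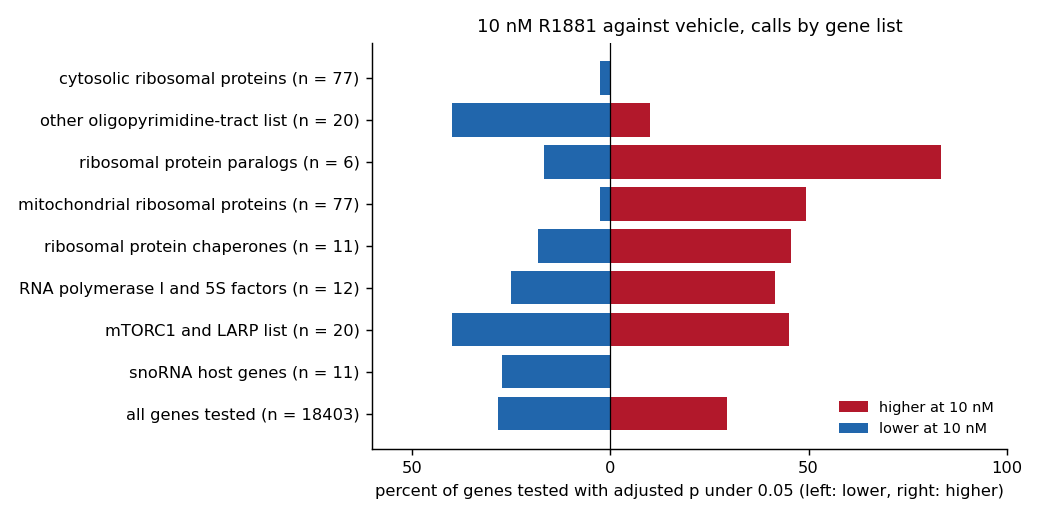
Percent of the genes tested in each list that were called lower (left, blue) or higher (right, red) at 10 nM against vehicle, with TMM scaling. The cytosolic ribosomal protein genes have 2 of 77 called, all genes tested 57.6%. With library totals 61 of 77 are called lower, against 43.4% of all genes, and the mitochondrial list has 13 higher and 17 lower.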

How the data were processed

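RNA from 15 LNCaP libraries was sequenced with a stranded messenger RNA kit, per the labels' protocols. The deposited values are whole-number raw counts per gene. Trimmomatic 0.39, STAR 2.7.8a, DESeq2 1.36.0 and GRCh38 are named in the submitters' processing notes; the counter, annotation release and strand setting are not given in the sources used here, and multimapping reads could change members with pseudogenes. The 15 columns of the VCaP table match no label and were not used.

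Symbols were matched without version (37732 of 37843 IDs); positions and coding lengths are from GENCODE 29. edgeR 4.0.16 (R 4.3.3) fitted all 15 libraries with 1 mean per group, TMM scaling and filterByExpr (18403 genes tested), two-sided, with Benjamini-Hochberg adjustment. The steps were tested on simulated data. Alternatives were RLE factors, DESeq2 1.42.0, library totals, TMM factors without the members, no filter, a stricter filter (mean count of at least 20, and 1 CPM or more in 3 libraries), only the libraries compared, pseudogene counts added, the libraries numbered 3 left out, each library left out, and the replicate number as a block; library totals with that block were added after seeing the data. Same-numbered libraries deviated together beyond a correlation of 0.1 in all 3 pairs at 0.03 nM (0.15 to 0.30) and at 0.1 nM (0.15 to 0.29) against vehicle, which is a hint from the data. No replicate pair agreed within sampling noise.

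Members, lists and named genes (the largest called changes, fixed members, paralogs and up to 4 list genes of smallest p) were chosen with earlier results of these data known. Others were named after their values were seen. Values of some individual genes are not reported here.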

Additional observations from a re-analysis of the deposited data

How the results depend on the processing

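The scale and the libraries decide how many members are called. With library totals the members called lower at 0.1 nM, at 10 nM and in 10 against 0.06 nM were 4, 61 and 57. The medians in the last 2 were -0.27 and -0.24. Of all genes 24.4%, 43.4% and 38.3% were called lower there. With library totals and the replicate block the members called lower were 3 at 0.06 nM, then 12, 69 and 70 (medians -0.27 and -0.24). The shares of all genes called lower were 22.2%, 29.9%, 47.5% and 44.1%. That setting called 1 member higher at 0.03 and at 0.06 nM, against 9.32% and 18.1% of all genes. The replicate block alone gave 1 higher at 0.03 nM and at 0.06 nM, 2 lower at 0.1 nM, 13 lower at 10 nM and 8 lower in 10 against 0.06 nM. Of all genes it called 9.93% and 20.7% higher at 0.03 and 0.06 nM. It called 24.6% lower at 0.1 nM, 31% lower at 10 nM and 26.6% lower in 10 against 0.06 nM. Each block gave 1 non-monotone member. With the replicate block alone RPL13A and RPS3 stayed called lower at 10 nM (log2 -0.24 and -0.20, edgeR adjusted p = 0.000154 and 0.00136). Without the low-count filter 5 were lower and 1 (RPL26) higher at 10 nM and 2 lower in 10 against 0.06 nM, and with the stricter filter 9 and 2. Without the libraries numbered 3 the counts were 1 higher at 0.06 nM, 2 higher at 0.1 nM (RPL27 and RPS24), 10 lower at 10 nM and 5 lower in 10 against 0.06 nM, and with only the libraries compared 2 lower in 10 against 0.06 nM. Leaving out 1 library gave 0 to 1 higher at 0.03 and at 0.06 nM, 0 to 9 lower at 10 nM and 1 to 5 lower in 10 against 0.06 nM.

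The share of counts without mitochondrially encoded genes in the denominator was 6.59%, 6.69%, 6.35%, 6.15% and 5.42% from vehicle to 10 nM, and the subunit ratio with pseudogene counts added 0.593, 0.591, 0.602, 0.599 and 0.594. The 82 named genes had 127 calls over the 5 comparisons, of which 87 were kept under every alternative, 19 were lost or reversed with library totals and 33 were lost under another alternative. The log2 fold changes of 3 genes called at 10 nM changed sign with library totals: TPT1 (-0.0035), NPM1 (-0.082) and MDM4 (-0.015). They also changed sign with library totals and the block (-0.0036, -0.082 and -0.015). A change of sign is not a call in the other direction. All genes called at 0.03 nM numbered 1588, but 3195 with the block, 3202 with library totals and the block, 1010 with only the libraries compared and 979 without vehicle replicate 4. The cause of these differences was not tested, apart from library totals, which by construction carry the shift of all genes. In the other 3 comparisons fewer than 3 library pairs passed a correlation of 0.1. The lowest were 0.099 at 0.06 nM, 0.066 at 10 nM and 0.095 in 10 against 0.06 nM, all above 0. Whether a number marks a shared batch is not given in the labels.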
